A study of Mus musculus with 175 samples.

Results

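The D-type cyclins, their kinase partners and the inhibitors that bind them were followed across 4 sorted progenitor populations of mouse fetal liver. The genes were taken by symbol from the gene annotation of the series: the cyclins Ccnd1, Ccnd2 and Ccnd3, the kinases Cdk4 and Cdk6, the CIP/KIP inhibitors Cdkn1a, Cdkn1b and Cdkn1c, and the INK4 inhibitors Cdkn2c and Cdkn2d. They are 10 of 49585 mouse genes counted. Single cells were sorted from livers at 14.5 days post fertilization, from C57BL/6 mice crossed with ICR that carried the Runx1 P1-GFP::P2-hCD4/+ reporter, and each cell was sequenced with a modified Smart-Seq2 protocol. In this allele human CD4 reports activity of the P2 promoter of Runx1, and every population carried it. The genotype field of the labels reads P2-GFP::P2-hCD4/+ instead. The populations were P2- MEPs (P2-hCD4 negative megakaryocyte-erythroid progenitors, 56 cells kept of 57), P2+ MEPs (47 of 48), P2- CMPs (common myeloid progenitors, 27 of 27) and P2+ CMPs (42 of 43). Lineage-negative SCA1- C-KIT+ CD16/32low cells were gated as CD34- (MEPs) or CD34+ (CMPs), both CD41- and CD150+, so CD34 and the Runx1 reporter are sort criteria and not findings.

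Livers of 2 litters were pooled, so that each population is 1 sample without a replicate. No test between populations was made, and the intervals given are 95% intervals. Exact Poisson intervals for pooled levels and exact conditional binomial intervals for ratios cover counting error only. Clopper-Pearson intervals for shares of cells cover the sampling of cells within 1 pool only. Reads carry no molecular identifiers, so PCR copies are counted as reads and true intervals are wider. Pooled CPM is the sum of a gene's reads over the cells of a population per 1000000 mouse reads in those cells. A difference was counted when it reached 2-fold between pooled levels. The kept cells held 295064 to 1540631 mouse reads each, and the deepest population by median was the P2+ CMPs (804632 reads per cell) and the shallowest the P2- MEPs (520540). One P2- CMP whose subtype field names MEPs was kept, and leaving it out kept the counts of genes past 2-fold within 1.5 times.

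D cyclins bind CDK4 or CDK6 when growth factors call for division, and the active pair phosphorylates RB, which releases E2F factors that switch on the genes of DNA replication. INK4 proteins bind the kinases themselves and displace the cyclin. CIP/KIP proteins bind cyclin-CDK complexes, block the CDK2 complexes that act later, and also help D cyclins to assemble with CDK4 and CDK6. In blood formation Cdk6 is known for its role in stem and progenitor cells, Cdkn1c for the quiescence of stem cells, and Cdkn2c and Cdkn2d for cell cycle exit in maturing cells.

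Promoter sequence was available for 7 of the 10 genes in RefSeq (GRCm38.p6), not for Ccnd1, Ccnd2 and Cdkn1c. In the 250 bases before each start, both strands were searched for the MYC-type E-box (CACGTG), the GC box (GGGCGG), the p53 half-site and 4 E2F words (TTTGGCGC, TTTCGCGC, TTTCCCGC, TTTGCCGC). Of 32851 windows of the same length, 6.02% held the E-box, 32.7% the GC box, 7.13% the p53 half-site and 1.86% any of the E2F words. The stretches below are shown because the window of Cdk4 holds 4 E-boxes, while Cdk6 holds 1, and because Cdkn1a, the inhibitor with the highest ratio between the MEPs, holds p53 half-sites before its upstream start. Capitals mark E-boxes and the GC box (on the other strand) in Cdk4 and p53 half-sites in Cdkn1a, all stretches are on the + strand, 5′ to 3′, and each stretch is the longest run of its window outside annotated exons of the gene.
Cdk4, chr10:127063285-127063533: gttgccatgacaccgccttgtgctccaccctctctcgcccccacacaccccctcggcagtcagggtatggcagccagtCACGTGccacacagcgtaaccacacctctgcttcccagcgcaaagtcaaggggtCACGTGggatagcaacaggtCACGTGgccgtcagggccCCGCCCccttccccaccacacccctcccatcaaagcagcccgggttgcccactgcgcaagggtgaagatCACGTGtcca
Cdk6, chr5:3343789-3343892: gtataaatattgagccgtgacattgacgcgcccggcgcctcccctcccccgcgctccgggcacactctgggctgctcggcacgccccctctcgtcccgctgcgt
Cdkn1a, chr17:29090729-29090975: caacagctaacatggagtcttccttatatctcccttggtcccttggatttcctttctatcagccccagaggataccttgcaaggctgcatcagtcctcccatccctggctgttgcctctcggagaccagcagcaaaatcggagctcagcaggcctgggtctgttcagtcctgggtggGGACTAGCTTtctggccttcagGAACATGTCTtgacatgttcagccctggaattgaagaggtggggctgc
The E-boxes of Cdk4 begin 172, 118, 98 and 11 bases before its start, and its GC box 80 bases before. Only 7 of the 32851 windows (0.0213%) held 4 or more E-boxes. The window of Cdk4 is 64.4% G and C, beside a median of 52.4% over all windows, and the background was not matched for this. The single E-box of Cdk6 lies 220 bases before its start, outside the stretch printed. The other start of Cdkn1a holds 2 GC boxes and no p53 half-site, and gene counts cannot separate its starts. The window of Cdkn2d holds a p53 half-site 102 bases before its start and 3 GC boxes, and is not printed because 198 of its 250 bases lie in an exon of the gene. None of the windows of these genes held any of the 4 E2F words searched. A match is a description of letters and not of binding, which was not measured here.

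Ccnd2 was the leading D cyclin per length in all 4 populations, and Ccnd1 was low in MEPs and higher in CMPs. The pooled level of Ccnd1 was 5.82 CPM (95% interval 4.99 to 6.74) in P2- and 11.0 (9.89 to 12.2) in P2+ MEPs, and 50.8 (47.6 to 54.1) in P2- and 48.4 (46.2 to 50.7) in P2+ CMPs. The median MEP was at 0, with highest cells of 88.2 (P2-) and 156 CPM (P2+), and cells ran from 0 over a median of 3.16 to 249.8 in P2- and from 0 over 13.4 to 198 in P2+ CMPs. The intervals of the pooled levels of both CMP populations overlap, and both lie above those of the MEPs. Thinned to 100000 mouse reads, 9 of 56 P2- MEPs (16.1%, 7.62 to 28.3) and 8 of 47 P2+ MEPs (17.0%, 7.65 to 30.8) had a read of Ccnd1, against 12 of 27 P2- CMPs (44.4%, 25.5 to 64.7) and 22 of 42 P2+ CMPs (52.4%, 36.4 to 68.0). Without thinning these were 12, 9, 16 and 28 cells. Between the MEPs the share of cells was near the same while the pooled level was 1.90-fold higher in P2+ MEPs, and 1 cell gave 34.3% of the Ccnd1 reads of P2- MEPs and 1 cell 31.0% of those of P2+ MEPs. Of the exon bases of Ccnd1 (chr7:144929931-144939925, minus strand), 23.4% are shared with LTO1, and reads there are not counted for either gene.

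Ccnd2 had pooled levels of 231.3 CPM (225.97 to 236.8) in P2- and 252.8 (247.3 to 258.4) in P2+ MEPs, and 380.1 (371.2 to 389.1) in P2- and 313.5 (307.7 to 319.3) in P2+ CMPs. For Ccnd2, single MEPs ran from 0 over a median of 236.3 to 634 CPM (P2-) and from 0 over 276.1 to 871 (P2+), and single CMPs from 114 over 356.02 to 904 (P2-) and from 0 over 320 to 676 (P2+). The cells of all 4 populations overlap widely, and the highest population exceeded the lowest by 1.64-fold. Ccnd3 was at 93.2 CPM (89.9 to 96.7) in P2- and 174 (169 to 179) in P2+ MEPs, and 206.3 (199.8 to 213.01) in P2- and 221.04 (216.2 to 225.9) in P2+ CMPs. P2- MEPs stood lowest, at a median cell of 81.3 CPM against 175, 167 and 204 in the other populations in the same order, with overlapping cells. Part of Ccnd3 has a processed pseudogene copy, Ccnd3-ps on chromosome 4 (881 bases at 96.3% identity), so some of its reads may not map uniquely.

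Per kilobase of exon, D cyclin levels summed to 36.4 RPKM in P2- and 49.0 in P2+ MEPs, and 74.7 in P2- and 68.8 in P2+ CMPs. RPKM here is pooled CPM divided by the exon length of the gene in kilobases, and serves to compare genes. The length includes bases shared with other genes, where reads are not counted. Ccnd2 made up 67.5%, 54.8%, 54.1% and 48.4% of the D cyclin sum in that order, Ccnd3 29.2%, 40.4%, 31.5% and 36.6%, and Ccnd1 3.39%, 4.77%, 14.4% and 14.9%. The smallest Ccnd1 share and the largest Ccnd2 share were thus in P2- MEPs. Reads of all 3 D cyclins in the same thinned cell were found in 9 of 56 (P2-) and 8 of 47 (P2+) MEPs and in 12 of 27 (P2-) and 22 of 42 (P2+) CMPs, and 1 cell, a P2+ MEP, had reads of none. More reads of Ccnd3 than of Ccnd2 were found in 13, 13, 6 and 14 cells in the same order (23.2%, 27.7%, 22.2% and 33.3%), with overlapping intervals.

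Cdk4 and Cdk6, the catalytic partners of the D cyclins, were read in nearly every cell and from P2+ MEPs to P2+ CMPs one was higher and the other lower. Cdk4 (chr10:127063534-127067920) was at 831 CPM (821 to 841) in P2- and 767 (757 to 776) in P2+ MEPs, and 949 (935 to 963) in P2- and 1129 (1118 to 1140) in P2+ CMPs. All 172 cells had Cdk4 reads, and its lowest cell was at 427, 150, 448 and 501 CPM in that order. The highest population exceeded the lowest by 1.47-fold. Of its exon bases, 19.7% are shared with Tspan31, where reads are not counted.

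Cdk6 (chr5:3341485-3531008) was at 509 CPM (501 to 517) in P2- and 822 (812 to 832) in P2+ MEPs, and 524 (514 to 535) in P2- and 305.5 (299.9 to 311.3) in P2+ CMPs. Single MEPs ran from 27.8 over a median of 446 to 1088 CPM (P2-) and from 235.9 over 760 to 1808 (P2+), and single CMPs from 0 over 383 to 1593 (P2-) and from 0 over 258.8 to 717 (P2+). P2+ MEPs were highest and P2+ CMPs lowest, with some overlap of their cells, while the counting intervals of P2- MEPs and P2- CMPs overlap. P2- CMPs were the most uneven: the middle of their cells reached from 247.4 to 823.3 CPM (1st and 3rd quartile), and 1 cell gave 15.1% of the reads.

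**Figure D1:**
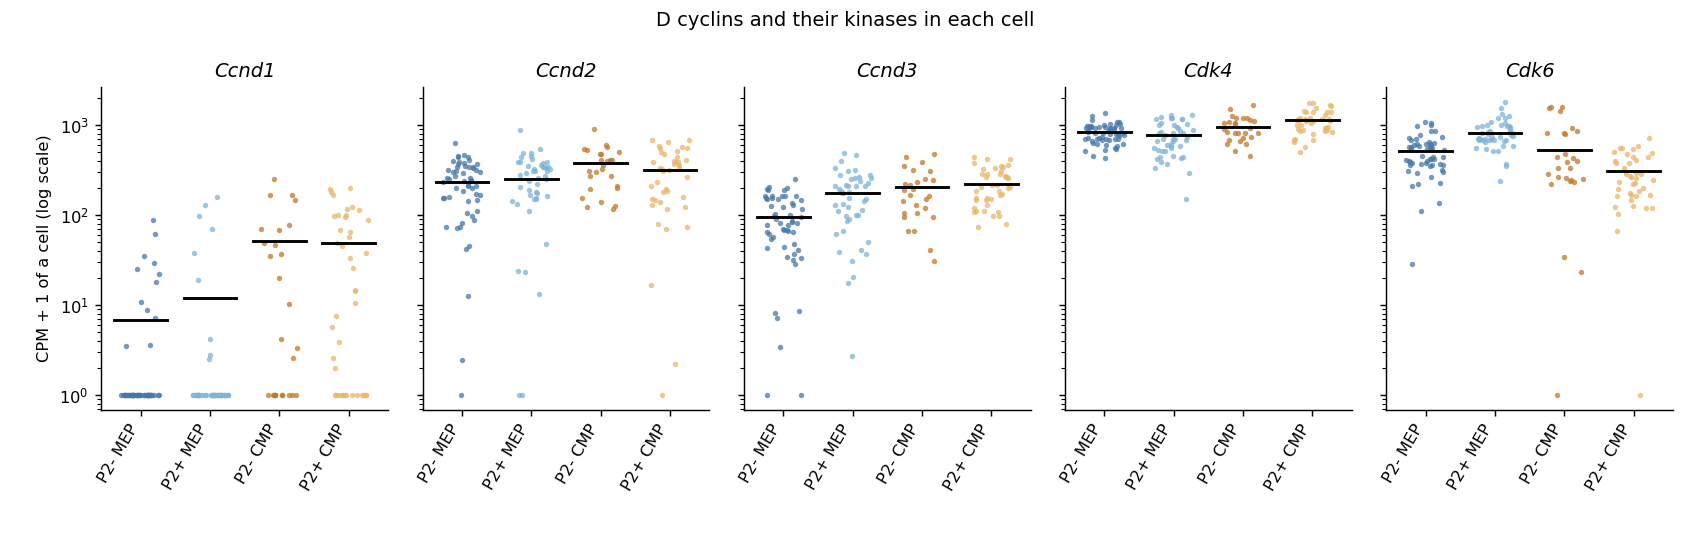
CPM plus 1 of each D cyclin and kinase in single cells (points, log scale) of the 4 populations, with the pooled CPM plus 1 as a black line. Ccnd1 is at 0 CPM in most MEPs, Cdk4 lies in a narrow band, and Cdk6 is highest in P2+ MEPs (pooled 822 CPM) and lowest in P2+ CMPs (305.5 CPM).

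As a ratio of pooled CPM, Cdk4 over Cdk6 was 1.63 in P2- and 0.933 in P2+ MEPs, and 1.81 in P2- and 3.69 in P2+ CMPs. Per length Cdk4 exceeded Cdk6 throughout, by ratios of 7.03, 4.02, 7.79 and 15.9 in RPKM, since the exons of Cdk6 sum to 13989 bases and those of Cdk4 to 3249. More reads of Cdk6 than of Cdk4 were found in 30 of 47 P2+ MEPs (63.8%, 48.5 to 77.3), against 9 of 56 P2- MEPs (16.1%, 7.62 to 28.3), 5 of 27 P2- CMPs (18.5%, 6.30 to 38.1) and 1 of 42 P2+ CMPs (2.38%, 0.0603 to 12.6), all thinned to 100000 reads. The share interval of P2+ MEPs overlaps none of the others, over cells of 1 pool each and not as a test. Both kinases were read in every MEP, and 1 P2- CMP and 1 P2+ CMP had no read of Cdk6. Of the kinase sum per length, Cdk6 made up 12.4% (P2-) and 19.9% (P2+) in MEPs and 11.4% (P2-) and 5.91% (P2+) in CMPs.

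**Figure D2:**
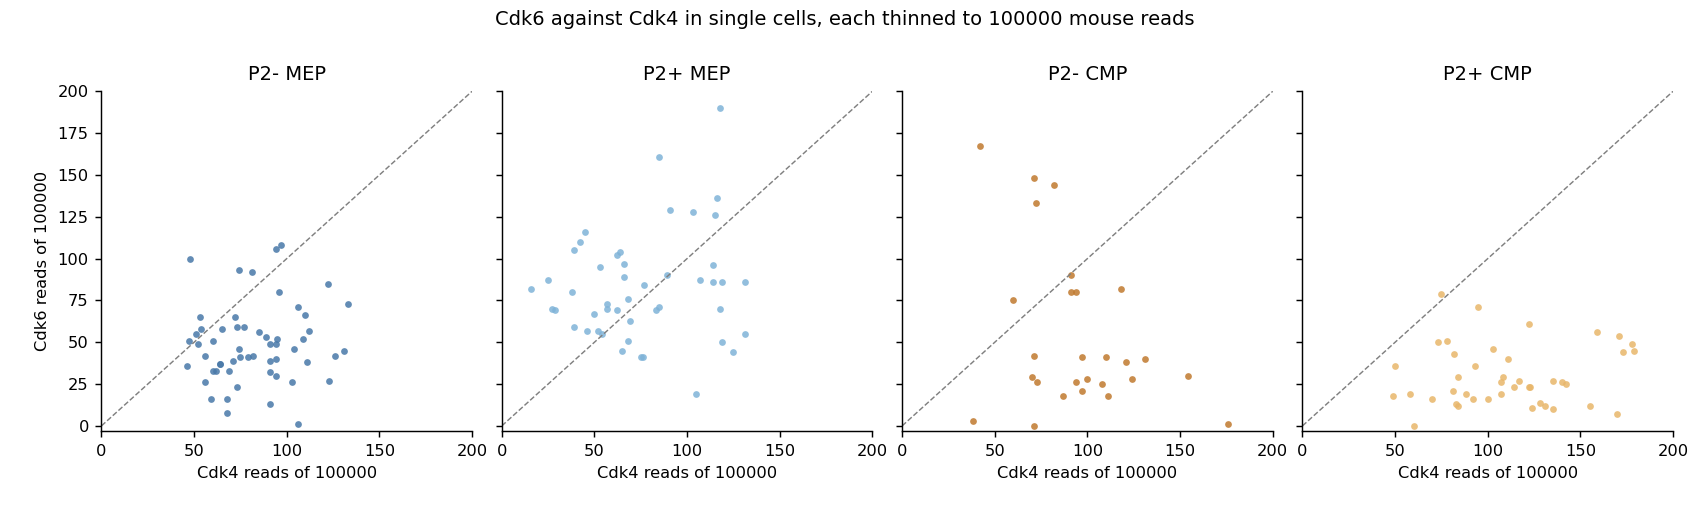
Reads of Cdk6 against reads of Cdk4 in each cell (points) after thinning to 100000 mouse reads, one panel per population, with equality as a dashed line. In P2+ MEPs 30 of 47 cells lie above the line, and in P2+ CMPs 1 of 42 does.

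The CIP/KIP inhibitors were sparse, and each had its own pattern. Cdkn1a, which encodes p21, was at 2.29 CPM (1.78 to 2.89) in P2- and 19.6 (18.1 to 21.2) in P2+ MEPs, and 20.8 (18.7 to 23.0) in P2- and 28.7 (27 to 30.5) in P2+ CMPs. Its highest cell was at 40.8, 198, 199 and 200 CPM in that order, and its median cell at 0 except in P2+ CMPs (14.6). A read of Cdkn1a in thinned cells was found in 3 of 56 P2- (5.36%, 1.12 to 14.9) and 13 of 47 P2+ MEPs (27.7%, 15.6 to 42.6), and in 9 of 27 P2- (33.3%, 16.5 to 54.0) and 21 of 42 P2+ CMPs (50%, 34.2 to 65.8). P2- MEPs stood lowest by level and by share of cells. Their share interval ends just below that of P2+ MEPs (14.9 against 15.6%), over cells of 1 pool each and not as a test. Without thinning the cells with a read numbered 4, 14, 9 and 27. Its reads came from few cells, with 39.6% of those of P2+ MEPs and 55.4% of those of P2- CMPs from 1 cell each.

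Cdkn1c, which encodes p57, was read in few MEPs and in more of the CMPs. Its level was 1.11 CPM (0.769 to 1.55) in P2- and 0.792 (0.512 to 1.17) in P2+ MEPs, and 8.51 (7.23 to 9.95) in P2- and 13.6 (12.5 to 14.9) in P2+ CMPs. Reads were found in 2 of 56 and 2 of 47 thinned MEPs, and in 7 of 27 P2- CMPs (25.9%, 11.1 to 46.3) and 21 of 42 P2+ CMPs (50%, 34.2 to 65.8). Its highest cell was at 27.5 and 37.8 CPM in MEPs and at 78.8 and 115 in CMPs. One P2+ MEP held 22 of the 25 reads of its population. The share in P2+ CMPs depended on depth and was 26.2% in place of 50% when cells were thinned to 50000 reads. Of the exon bases of Cdkn1c (chr7:143458339-143461050, minus strand), 30.7% lie over the antisense gene Gm44732, and counting without strand leaves out reads there. Of the 6 neighbours of Cdkn1c in its imprinted region, Kcnq1ot1, the RNA that silences the domain on the paternal allele, was at 92.9, 139, 132 and 97.7 CPM in the order of the opening paragraph, and Phlda2, an imprinted growth regulator, at 0.653, 4.59, 7.53 and 4.32. Of the 5 that passed the count filter, Phlda2 was 2-fold higher in P2+ than in P2- MEPs, Phlda2 and Slc22a18 (7.58 against 2.09 CPM) in P2- CMPs than in P2- MEPs, and 0 in the other comparisons. Of all genes tested 15% and 22.5% were 2-fold higher in these comparisons, and a list of 5 genes is too short to set against those shares.

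Cdkn1b, which encodes p27, was low at the RNA level in every population. It was at 3.82 CPM (3.16 to 4.58) in P2- and 5.61 (4.81 to 6.50) in P2+ MEPs, and 7.53 (6.32 to 8.89) in P2- and 1.57 (1.19 to 2.03) in P2+ CMPs. In thinned cells 7 of 56, 11 of 47, 4 of 27 and 2 of 42 had a read, and without thinning 12, 16, 6 and 7. P2+ CMPs were lowest by level, and their 57 reads came from 7 cells, 36.8% of them from 1. In P2- MEPs 1 cell gave 47.9% of the reads. Per length, Cdkn1a made up 31.7% (P2-) and 77.3% (P2+) of the CIP/KIP sum in MEPs and 50.1% (P2-) and 53.5% (P2+) in CMPs. Cdkn1c made up 26.9% (P2-) and 5.44% (P2+) in MEPs and 35.7% (P2-) and 44.3% (P2+) in CMPs. Cdkn1b went from 41.4% in P2- MEPs to 2.28% in P2+ CMPs. Of the exon bases, 30.7% of Cdkn1c and 7.68% of Cdkn1a are shared with other genes. Cdkn1c may thus be understated beside Cdkn1a, and which of them leads in P2+ CMPs is not settled. No read of any CIP/KIP gene was found in 44 of 56 P2- MEPs (78.6%, 65.6 to 88.4) and 25 of 47 P2+ MEPs (53.2%, 38.1 to 67.9), against 10 of 27 P2- CMPs (37.0%, 19.4 to 57.6) and 7 of 42 P2+ CMPs (16.7%, 6.97 to 31.4), thinned to 100000 reads.

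Of the INK4 inhibitors, Cdkn2d was the one found in many cells. Cdkn2d, which encodes p19INK4d, was at 26.2 CPM (24.4 to 28.05) in P2- and 56.9 (54.3 to 59.6) in P2+ MEPs, and 60 (56.5 to 63.6) in P2- and 58.3 (55.9 to 60.9) in P2+ CMPs. Apart from P2- MEPs, which lie lowest, the populations have overlapping counting intervals. Cells ran from 0 over a median of 0.861 to 148 CPM in P2- and from 0 over 41.3 to 332.1 in P2+ MEPs, and from 0 over 49.6 to 236.2 in P2- and from 0 over 46.1 to 199 in P2+ CMPs. Reads were found in 25 of 56 (44.6%, 31.3 to 58.5), 25 of 47 (53.2%, 38.1 to 67.9), 19 of 27 (70.4%, 49.8 to 86.2) and 26 of 42 thinned cells (61.9%, 45.6 to 76.4), with overlapping intervals. The difference in level between the MEP populations is thus larger than that in the share of cells with a read.

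Cdkn2c, which encodes p18INK4c, was read in 8 of 172 cells. It was at 3.99 CPM (3.31 to 4.76) in P2- MEPs, in 5 cells, and 68 of the 69 reads of P2+ MEPs (2.19 CPM) and all 30 reads of P2+ CMPs (0.825 CPM) came from 1 cell each. No read was found in the 27 P2- CMPs, where the floor of 3 reads is 0.164 CPM, or 11.1% of the cells, and the exact upper limits of the intervals are 0.201 CPM and 12.8%. The latter limits cells with a read, not cells that express the gene. The remaining INK4 genes, Cdkn2a and Cdkn2b, had no read in any cell, where 3 reads would be 0.0825 to 0.164 CPM of a population.

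**Figure D3:**
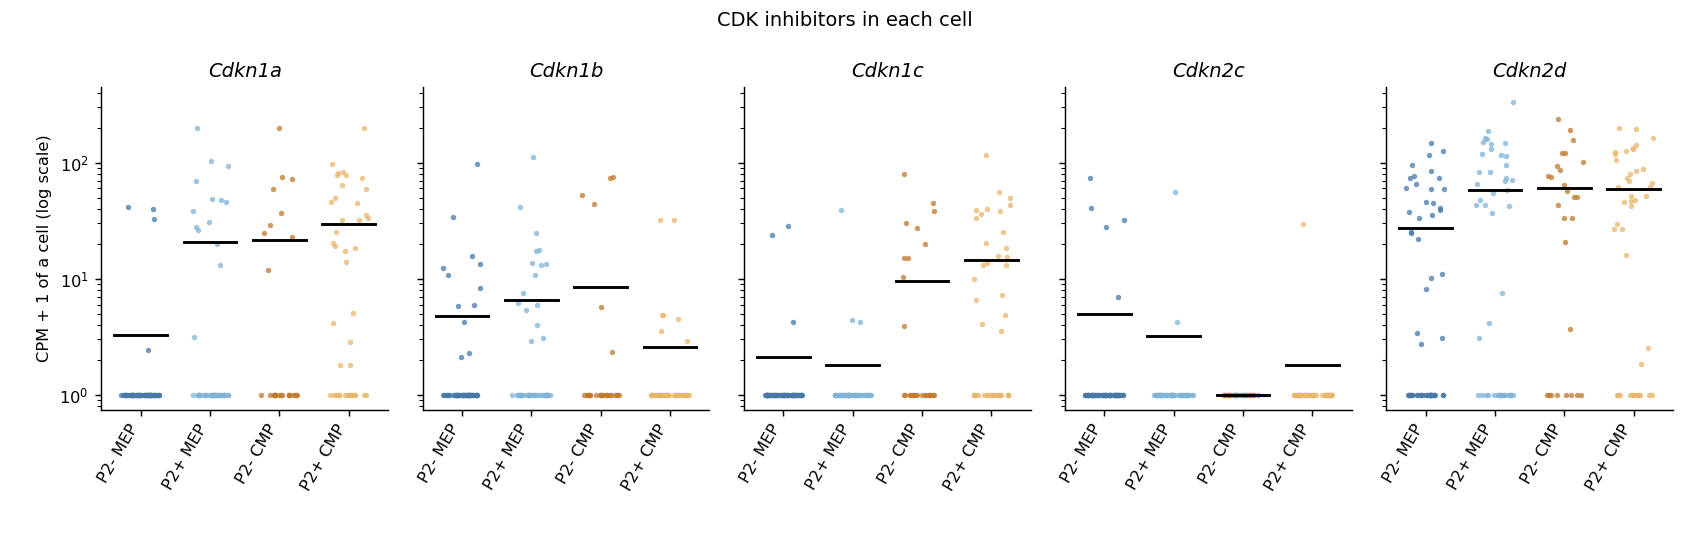
CPM plus 1 of each CDK inhibitor in single cells (points, log scale) of the 4 populations, with the pooled CPM plus 1 as a black line. Most cells are at 0 CPM for each CIP/KIP gene in MEPs, and Cdkn2d is the inhibitor with the most cells above 0 in MEPs.

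Per length the 5 inhibitors summed to 20.1 RPKM in P2- and 44.1 in P2+ MEPs, and 49.8 in P2- and 52.5 in P2+ CMPs. Summed CDK4/6 levels were 292.1, 294.8, 329.5 and 369.3 RPKM, which is 14.5, 6.68, 6.62 and 7.03 times the inhibitor sum. P2- MEPs had the smallest inhibitor sum, of which Cdkn2d made up 82.6%, beside 81.98%, 76.6% and 70.6% in the other populations, and the kinase sum of P2+ MEPs was close to theirs. At 100000 reads, 22 of 56 P2- MEPs had no read of any of the 5 inhibitors (39.3%, 26.5 to 53.2), as did 12 of 47 P2+ MEPs (25.5%, 13.9 to 40.3), 3 of 27 P2- CMPs (11.1%, 2.35 to 29.2) and 5 of 42 P2+ CMPs (11.9%, 3.98 to 25.6). The interval of P2- MEPs just clears that of P2+ CMPs and overlaps the other populations, over cells of 1 pool each and not as a test. Reads of Cdkn1a and Cdkn2d in the same cell were found in 1 P2- MEP, 8 P2+ MEPs, 7 P2- CMPs and 15 P2+ CMPs. Cdkn1a and Cdkn1c were found together in 0, 1, 1 and 7 cells and Cdkn1c and Cdkn2d in 1, 1, 3 and 15, where Cdkn1c was read in 2, 2, 7 and 21 cells in all.

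**Figure D4:**
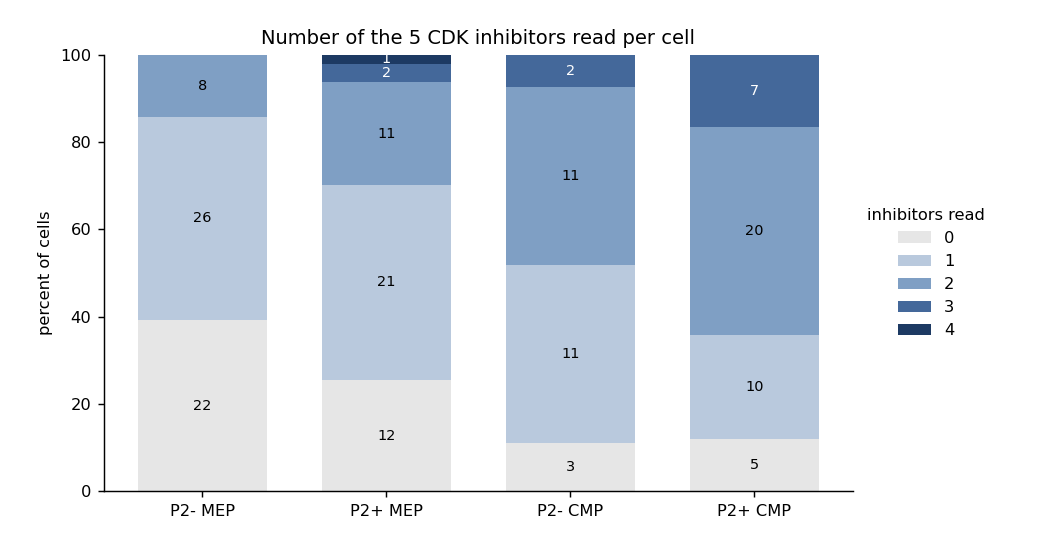
Percent of cells of each population by how many of the 5 CDK inhibitors had a read after thinning to 100000 mouse reads, with the number of cells printed in each segment. Cells with 0 inhibitors read make up 22 of 56 P2- MEPs and 5 of 42 P2+ CMPs, and cells with 3 read number 0, 2, 2 and 7 from left to right.

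Between the MEPs, which differ in the P2 reporter, 2 of the 10 genes were at least 2-fold higher in P2+ MEPs and 0 were lower. Over 11860 genes whose count averaged 1 or more, among them all 10, 15% were 2-fold higher and 6.46% lower, so the count is near the background. Cdkn1a was 8.57-fold higher (log2 ratio 3.10, 2.74 to 3.48) and Cdkn2d 2.18-fold higher (1.12, 1.001 to 1.24). Just under the threshold were Ccnd1 (0.92, 0.66 to 1.19) and Ccnd3 (0.90, 0.83 to 0.96), and Cdk6 was at 0.69 (0.66 to 0.72). Cdk4 was at -0.12 (-0.14 to -0.09), Ccnd2 at 0.13, Cdkn1b at 0.55 and Cdkn1c at -0.49 (-1.29 to 0.30), and Cdkn2c at -0.87. The median of the 10 log2 ratios was 0.62, against 0.05 over all genes tested. Per ERCC spike-in read, of which P2+ MEPs had 1 for 41.1 mouse reads and P2- MEPs 1 for 63.1, the median of all genes was -0.56, and Ccnd2 (-0.49) and Cdkn1b (-0.06) changed sign, Cdkn2d (0.50) was below 2-fold, Cdkn1c (-1.11) and Cdkn2c (-1.48) were past 2-fold lower and Cdk6 was at 0.08, which leaves 1 gene higher (Cdkn1a) and 2 lower. Relative to that median, Cdkn2d was at 1.07, Cdk6 at 0.64, Cdkn1c at -0.54 and Cdkn2c at -0.92. These values equal the CPM ratios less their own median, since the scaling shifts every gene alike, and are no separate check. Leaving out the cell of highest CPM in each population moved Ccnd1 to 1.13, Cdkn1c to -2.63 (-5.04 to -0.85) with 3 reads left in P2+ MEPs, and Cdkn2c to -5.96 (-11.3 to -3.43) with 1 read left there.

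Between the CMPs, 1 gene of the 10 was 2-fold higher in P2+ CMPs and 1 lower, beside 9.79% and 9.33% of all genes, which is again near the background. Cdkn1b was 4.80-fold lower in P2+ CMPs (log2 ratio -2.26, -2.73 to -1.81). Cdkn2c counted as at least 5.04-fold higher against the floor of 3 reads, and its reads in P2+ CMPs came from 1 cell, without which both populations were at 0. Cdk6 was 1.72-fold lower (-0.78, -0.82 to -0.74) and Cdk4 1.19-fold higher (0.25, 0.23 to 0.28). Cdkn1c was at 0.68 (0.42 to 0.95) and Cdkn1a at 0.47 (0.30 to 0.64), the latter at 1.26 without the cell of highest level in each population. Ccnd1 (-0.07), Ccnd2 (-0.28), Ccnd3 (0.10) and Cdkn2d (-0.04) lay within 0.3 of 0. The median of the 10 was 0.03, against -0.02 over all genes. Per ERCC read (44.2 mouse reads in P2- and 55.5 in P2+ CMPs for each) the median of all genes was 0.31, and Ccnd1 (0.26), Ccnd2 (0.05) and Cdkn2d (0.29) were above 0 while Cdk6 was below (-0.45) and Cdkn1c at 1.01. Ccnd1 was also above 0 with equal weight for every cell, with DESeq2 size factors and without the cell of highest CPM (0.23).

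Of the 4 comparisons, P2- CMPs against P2- MEPs had the most of these genes past 2-fold. Of the 10 genes, 5 were 2-fold higher in P2- CMPs and 1 lower, beside 22.5% and 9.28% of all genes. Cdkn1a was 9.09-fold higher (log2 ratio 3.18, 2.81 to 3.57), Ccnd1 8.73-fold (3.13, 2.89 to 3.37), Cdkn1c 7.66-fold (2.94, 2.39 to 3.52), Cdkn2d 2.29-fold (1.20, 1.06 to 1.33) and Ccnd3 2.21-fold (1.15, 1.08 to 1.22). Cdkn2c was at least 24.4-fold lower against the floor (log2 ratio -4.61), and 61 of its 122 reads in P2- MEPs came from 1 cell. Cdk4 (0.19) and Cdk6 (0.04) were close to equal, and per ERCC read both were lower in P2- CMPs (-0.32 and -0.47, beside a median of all genes of -0.41). Ccnd3 (0.63) and Cdkn2d (0.68) were below 2-fold on that scale. The median of the 10 genes was 1.06, against 0.11 over all genes. Without the cell of highest CPM in each population Cdkn1b, here at 0.98, was at 1.58, Cdkn1c at 3.54 and Cdk6 at -0.02, and the bound of Cdkn2c was -3.65. Cdkn1b was past 2-fold in 5 of 7 alternative settings, so its call is at the threshold. The comparison shares its P2- MEPs with that between the MEPs and its P2- CMPs with that between the CMPs.

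P2+ CMPs against P2+ MEPs had 2 genes 2-fold higher and 3 lower, beside 17.0% and 10.3% of all genes. Cdkn1c was 17.2-fold higher (log2 ratio 4.11, 3.53 to 4.75) and Ccnd1 4.39-fold (2.14, 1.97 to 2.31). Cdk6 was 2.69-fold lower (-1.43, -1.46 to -1.40), Cdkn1b 3.58-fold lower (-1.84, -2.30 to -1.40) and Cdkn2c 2.65-fold lower (-1.40, -2.07 to -0.77), the last from 1 cell on one side and mainly 1 cell on the other. Cdk4 was 1.47-fold higher (0.56, 0.54 to 0.58), and Cdkn1a (0.55), Ccnd3 (0.35), Ccnd2 (0.31) and Cdkn2d (0.04) were nearer to equal. Per ERCC read, where the median of all genes was 0.44, Cdk6 was at -0.995, Cdkn2c at -0.97 and Cdk4 at 0.99, all just inside 2-fold. Without the cell of highest CPM, which held 22 of the 25 reads in P2+ MEPs, Cdkn1c was at 6.92 (5.36 to 9.20). The median of the 10 genes was 0.33, against 0.01 over all genes.

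**Figure D5:**
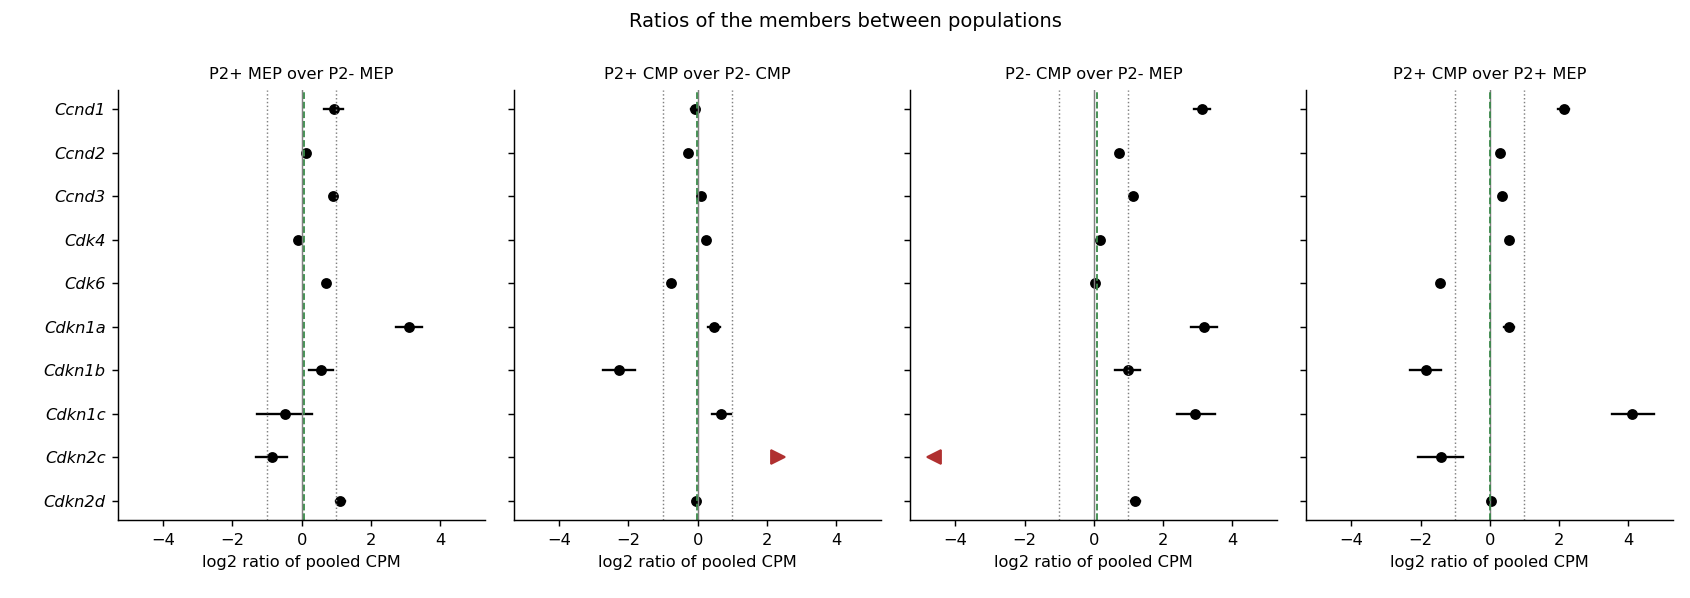
Log2 ratios of pooled CPM for the 10 genes in each of the 4 comparisons (points, with 95% counting intervals as lines), the threshold of 2-fold as dotted lines and the median of all genes as a dashed line. Triangles are bounds against a population without a read. Cdk6 lies to the right of 0 between the MEPs (0.69) and to the left between the CMPs (-0.78).

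The genes on which the D cyclins act were counted in the same way, and the share of all genes past 2-fold is the background for each count. That share was 15% higher and 6.46% lower between the MEPs, 9.79% and 9.33% between the CMPs, 22.5% and 9.28% between the P2- populations and 17.0% and 10.3% between the P2+ populations. Of the RB, E2F, later cyclin, G1/S and G2/M lists at most 1 gene each passed in either direction in any of the 4 comparisons, so the counts of the lists of 9 to 25 genes are near or below the background. The RB family (Rb1, Rbl1, Rbl2), the targets of CDK4/6, had 0 of 3 members past 2-fold between the MEPs, between the CMPs and between the P2- populations, and Rbl1 (p107) was higher in P2+ CMPs than in P2+ MEPs (64.5 against 27.8 CPM). Of 10 E2F and DP genes, E2f7, a repressor, was higher in P2+ than in P2- MEPs (34.6 against 15.4 CPM), and between the CMPs E2f1, an activator, was higher (44.3 against 21.3 CPM) and E2f2 lower (11.7 against 26.5 CPM) in P2+ cells. E2f7 was also higher in P2- CMPs (37.4 CPM) than in P2- MEPs, and E2f2 lower in P2+ CMPs than in P2+ MEPs (24.6 CPM). Of 9 later cyclins, CDKs and their regulators, Ccne1, the partner of CDK2, was lower in P2- CMPs than in P2- MEPs (78.8 against 214.5 CPM) and none of the others passed 2-fold in any of the 4 comparisons. Of 25 G1/S genes, Fen1 passed 2-fold in 3 of the comparisons, at 5.31 CPM or less, and most of its exon bases are shared with other genes. Medians of the G1/S genes were 0.14 between the MEPs and 0.20 between the CMPs, and those of 25 G2/M genes -0.13 and -0.34. Of the G2/M genes, 1 was lower between the MEPs (Aurka, 65.5 CPM in P2+ against 132 in P2- cells) and 0 passed between the CMPs or between the P2- populations. In P2+ CMPs Kif23 was higher (55.0 against 25.3 CPM in P2+ MEPs) and Hmmr lower (60.03 against 123 CPM).

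Genes around the pathway gave the following counts, beside the same shares of all genes. Of 11 genes for the turnover of D cyclins and p27, Fbxo4, an F-box protein reported to act on cyclin D1, was higher in P2+ than in P2- MEPs (15.4 against 3.89 CPM) and in P2- CMPs (21.9 CPM) than in P2- MEPs, and Cdc34, a ubiquitin-conjugating enzyme, was lower in P2+ CMPs than in P2+ MEPs (109 against 270 CPM), so that at most 1 of the 11 passed in a direction, near or below the background. The CDK-activating kinase (Cdk7, Ccnh, Mnat1) and the chaperones of CDK4/6 (Cdc37, Hsp90aa1, Hsp90ab1) had 0 members past 2-fold in the 4 comparisons. In the MYC family, whose products bind the E-box, Myc was at 394.5, 345.7, 252.7 and 253.9 CPM in the order of the opening paragraph, and Mycn at 0, 10.0, 103 and 185. Of the 5 MYC family genes that passed the count filter, 1, 0, 2 and 2 were 2-fold higher, beside 15%, 9.79%, 22.5% and 17.0% of all genes, and 0 lower in the 4 comparisons in the order given, namely Mycn between the MEPs, and Mycn and Mxd4 in P2- CMPs over P2- MEPs (16.3 against 2.58 CPM for Mxd4) and in P2+ CMPs over P2+ MEPs (12.9 against 1.42 CPM). Mycn was read in 0, 8, 18 and 40 thinned cells in that order, and with the floor of 3 reads for P2- MEPs its log2 ratio was at least 10.03 between the P2- populations.

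Cdkn1a is a known target of p53, and p53 with other targets was counted as a list of 12 genes. Between the MEPs, 1 of the 11 that passed the count filter was 2-fold higher in P2+ cells and 2 were lower, with a median of -0.36. Between the CMPs 2 were higher and 0 lower, between the P2- populations 3 and 3, and between the P2+ populations 1 and 0. Beside them stand 15%, 9.79%, 22.5% and 17.0% of all genes higher and 6.46%, 9.33%, 9.28% and 10.3% lower in the same order. Between the CMPs the higher genes were Phlda3 and Sesn2, between the P2- populations Bbc3, Btg2 and Trp53inp1 were higher and Ccng1, Phlda3 and Sesn2 lower in CMPs, and between the P2+ populations Trp53inp1 was higher. Between the MEPs the higher gene was Btg2, an antiproliferative gene (26.8 against 1.86 CPM), and the lower ones were Sesn2 (2.63 against 7.91 CPM) and Trp53inp1 (0 against 2.19 CPM). Trp53 itself was at 463 CPM (P2-) and 385 CPM (P2+), and Mdm2 at 45.4 and 44.2. Of the 3 FOXO factors, which are known to act on Cdkn1b, Foxo1 (11.8 against 5.85 CPM) and Foxo4 (9.15 against 1.31 CPM) were higher in P2+ than in P2- MEPs, and Foxo1 was higher in P2+ than in P2- CMPs (13.7 against 5.73 CPM). Foxo3 and Foxo4 were higher in P2- CMPs than in P2- MEPs (113 against 56.4 and 4.36 against 1.31 CPM). Beside these 2, 1 and 2 of 3 factors, 15%, 9.79% and 22.5% of all genes were 2-fold higher, and a list of 3 genes is too short to set against that share.

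Markers of cell identity differed between the populations. In the order of the opening paragraph, the summed level of 10 erythroid genes was 1777, 1109, 595 and 217.96 CPM, that of 8 megakaryocyte genes 56.5, 569, 596 and 690, that of 8 granulocyte/monocyte genes 16.3, 66.6, 409 and 665 and that of 6 stem and multipotent genes 8.66, 107, 540 and 882. Of these lists 3 erythroid genes had no read in P2+ CMPs, and 3 megakaryocyte, 4 granulocyte/monocyte and 2 stem and multipotent genes had none in P2- MEPs, while 2 granulocyte/monocyte and 2 stem and multipotent genes had none in P2+ MEPs. Cd34 was at 0.0327, 13.05, 274.3 and 541 CPM and Runx1 at 23.4, 57.0, 71.5 and 156 CPM, both sort criteria. Cd34 is in the stem and multipotent sum, which was 8.63, 93.7, 265.7 and 341.3 CPM without it, and Itga2b (CD41) and Fcgr3 (CD16), also sort genes, are in the megakaryocyte and granulocyte/monocyte sums, which were 22.8, 465.3, 564 and 651 CPM and 16.3, 66.6, 404 and 653 CPM without them. Of the 10 erythroid genes 8 were 2-fold lower in P2- CMPs than in P2- MEPs, beside 9.28% of all genes, but Hbb-bt, an adult beta-globin, was higher and made up much of the sum in CMPs (9.51, 9.79, 232.2 and 121 CPM), and Car1 was higher in P2+ (299.7 CPM) than in P2- MEPs (111 CPM). The part of these cell identities in the levels of Ccnd1, Cdk6, Cdkn1a and Cdkn1c was not tested. All 4 lymphoid genes were at 0 in every population, 5 macrophage genes summed to at most 10.1 CPM, 5 hepatocyte genes to at most 24.7 CPM and 4 endothelial genes to at most 3.88 CPM. Of the lymphoid genes, Cd3e and Il7r encode proteins that the lineage cocktail of the sort selects against. Mast cell and basophil genes reached 72.8 CPM in P2- CMPs, nearly all from Cpa3.

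Within a population, cells were compared by Spearman's rho as a description, over cells that share a pool and a protocol. Cdk4 against the summed G1/S genes was at 0.29 (P2-, n = 56) and 0.37 (P2+, n = 47) in MEPs and at 0.26 (P2-, n = 27) and 0.23 (P2+, n = 42) in CMPs. Cdk6 against the same sum ranged from -0.17 to 0.06. In CMPs the cells with more Ccnd2 and Ccnd3 had less of the summed G2/M genes: Ccnd2 was at -0.40 in P2- CMPs and -0.58 in P2+ CMPs, and Ccnd3 at -0.58 and -0.38. In MEPs Ccnd2 was at -0.16 (P2-) and 0.31 (P2+) and Ccnd3 at 0.04 and 0.06. Ccnd2 and Ccnd3 went together in P2+ CMPs (0.45) and less so elsewhere (-0.03 to 0.14), and Cdk4 with Cdk6 lay between -0.24 and 0.13. Cdk6 with the summed erythroid genes was at -0.46 in P2+ CMPs and -0.26 in P2+ MEPs, and at 0.01 and 0.03 in the P2- populations.

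The genes whose cell-to-cell pattern was most like that of a member were sought among 8009 genes, by the mean of rho over the 4 populations, for the 7 members read often enough. For Ccnd1 they were Alox5ap (0.38), Tgif1 (0.32) and Spi1 (0.31). For Cdk6 they were Mir142hg (0.37), Samd14 (0.35) and Ppp1cb (0.34), and for Cdk4 Cnbp (0.33), Gapdh (0.32) and Rplp0 (0.31). For Ccnd2 they were Osbpl11, Mtx1 and Rrp1b (0.31, 0.31 and 0.30), for Ccnd3 Haus7, Becn1 and Atp6v1h (0.30, 0.28 and 0.28), for Cdkn1a Slco3a1, Gm5855 and Plpp2 (0.31, 0.29 and 0.28) and for Cdkn2d Kptn, Rccd1 and Snx9 (0.31, 0.29 and 0.29). These are the highest of 8009 weak values in sparse counts. Alox5ap held above 0.2 in each population with Ccnd1 (0.21 to 0.47), while Samd14 with Cdk6 ranged from -0.02 to 0.53.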

How the data were processed

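Single cells of 4 populations were analysed, with groups taken from the sample titles. The labels low and high of the CMPs were read as P2- and P2+, and 1 P2- CMP whose subtype field names MEPs was kept. The authors trimmed reads with Trimmomatic 0.36, aligned them to GRCm38 and ERCC sequences with STAR 2.4.2a and counted exons of GENCODE M12 with HTSeq 0.6.1p1 without strand. The deposited values are raw counts per gene and cell, and the authors' table of unmapped reads is in percent of reads. Of the uniquely mapped reads, 25.6% were ambiguous between genes and 7.40% on no gene, and these rows were left out.

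As in the study, a cell was kept if it had at least 250000 reads, of which at most 25% were unmapped and at most 15% ERCC (172 of 175), and no 2 cells had identical counts. Cells were sorted singly and no doublet caller was run. Levels are pooled CPM over mouse reads. Genes needed a mean count of at least 1. Shares and rho used cells thinned to 100000 mouse reads (seed 1). Lengths, overlaps and positions came from GENCODE vM21, the same build as the counts but a later release. A floor of 3 reads stood in for a population at 0. The study's DESeq2 test treats cells as replicates and was not used; DESeq2 1.42.0 gave size factors for an alternative. The intervals and ratios were tested on simulated Poisson counts, the model that the intervals assume. The simulation held no PCR copies and no spread between cells, so it cannot show how the intervals hold for these reads. Python 3.11.15, numpy 2.4.6 and scipy 1.17.1 were used.

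The members, gene lists and comparisons were chosen with earlier results of these data known. Named genes are the 10 members, genes of the gene lists where their list is counted, and for each member read in at least 25% of cells the 3 genes with the highest mean rho, sought among genes read in at least 25% of cells and in each population.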

Additional observations from a re-analysis of the deposited data

Results flagged for a closer look

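For 4 of the 10 genes, beside 27.9% of the 11860 genes tested, the log2 ratio of P2+ over P2- cells had opposite signs in MEPs and CMPs with both counting intervals clear of 0, and the difference between the ratios was not tested, since each population is 1 pool. The ratio in MEPs exceeded that in CMPs by 2.82 for Cdkn1b (0.55 and -2.26), by 1.47 for Cdk6 (0.69 and -0.78) and by 0.41 for Ccnd2 (0.13 and -0.28). For Cdk4 the difference was -0.37 (-0.12 and 0.25). Per ERCC read the median of all genes was -0.56 between the MEPs and 0.31 between the CMPs. On that scale Ccnd2 was at -0.49 and 0.05, Cdk6 at 0.08 and -0.45, Cdk4 at -0.73 and 0.58 and Cdkn1b at -0.06 and -1.93. Relative to those medians, Ccnd2 (0.07 and -0.25) and Cdkn1b (0.50 and -2.24) had the signs given above. That follows from the CPM ratios, since the scaling shifts every gene of a comparison alike, and is no separate check.

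A P2+ MEP that was removed for its unmapped reads (27.9%) held 630 reads of the 10 genes among 315322 mouse reads, from 7 of the genes, with more reads of Cdk6 than of Cdk4 (120). The other removed cells, a P2- MEP and a P2+ CMP that were nearly all ERCC reads, held 0 reads of these genes among 63 and 765 mouse reads.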

How the results depend on the processing

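No paired analysis was possible because each population is 1 pool and the numbers in the sample titles name single cells. The counts of genes past 2-fold were within 1.5 times of those reported under every deposited cell, a denominator without mitochondrial genes and Rn18s-rs5, at least 10 reads in place of the mean count, and, for the comparisons with P2- CMPs, without the CMP with a conflicting label. Between the MEPs the count of 2 became 4 with equal weight for every cell, 4 with DESeq2 size factors, 5 without the cell of highest CPM of each population and 6 at a threshold of 1.5-fold. Between the CMPs it became 4 at 1.5-fold, and between P2+ CMPs and P2+ MEPs the count of 5 became 3 per ERCC read. Of the log2 ratios recomputed, 166 stayed within the counting interval of the reported value and 92 did not, 15 changed sign and 23 changed their side of 2-fold, and 0 of the values past 2-fold changed sign. Per ERCC read the split of 2-fold calls over all genes moved from 69.8% to 32.0% higher between the MEPs, from 51.2% to 70.2% between the CMPs, from 70.8% to 43.6% between the P2- populations and from 62.3% to 81.9% between the P2+ populations. Without the cell of highest CPM the split moved to 64.2% between the CMPs and to 57.1% between the P2- populations. The cause was not tested. Under 200 reads were found of Cdkn1b and Cdkn2c in each population, of Cdkn1c in MEPs and P2- CMPs, and of Cdkn1a and Ccnd1 in P2- MEPs. Of 120 shares of cells at other thinning depths, 115 stayed within their interval.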
